A study of Mus musculus with 6 samples.

Results

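Gipr, the receptor of the gut hormone GIP, was followed in hypoxic and normoxic pancreatic stellate cells (PSCs) together with 9 related genes. They are the glucagon-family receptors Gcgr, Glp1r and Glp2r, the VIP and PACAP receptors Vipr1, Vipr2 and Adcyap1r1, the parathyroid hormone receptor Pth1r, the calcitonin receptor-like receptor Calcrl, and Ramp1, an accessory protein of Calcrl. The 10 genes were found among the 55426 features of the deposited table by their Ensembl identifiers in GENCODE release M21. Gipr was chosen by its measured rise in counts at 1% O2 in these same samples and the others for their receptor class, so the differences of all 10 between the conditions are given as a description. No p-value is printed for them, and where one is said to meet the thresholds used for all genes, this describes its values and is no independent test. In this fibroblast precursor population Gipr changed from a barely detected gene to the most abundant of the 10.

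Primary mouse PSCs of strain C57BL/6, isolated from the pancreas of wild-type mice, were cultured with organoids of mT3, a mouse pancreatic ductal adenocarcinoma (PDAC) line. PSCs sat in Matrigel in a transwell insert above the organoids, and both compartments shared the same oxygen level for 48 h, so a change in PSCs may pass through the tumor cells. Bulk poly(A) RNA of the PSCs was sequenced in 6 samples, 3 at 21% O2 and 3 at 1% O2. The labels do not say whether the 3 samples of a condition came from separate PSC lines, so the spread between them may be technical.

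Receptors of the secretin class, also called class B1, bind peptide hormones with a large extracellular domain and mostly signal through the G protein Gs, adenylate cyclase and cAMP. GIP released after a meal raises insulin secretion through its receptor on pancreatic beta cells, and the receptor is also known from adipose tissue. Calcrl is unusual in the class, because its ligand is set by its partner. With Ramp1 it binds CGRP, and with Ramp2 or Ramp3 it binds adrenomedullin.

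The libraries held between 24749601 and 31925054 counts, and 3 counts, taken as the least that can be told from none, were 0.0943 to 0.122 CPM. All 8 genes of a hypoxia check list, among them Car9, Egln3 and Slc2a1, were called higher at 1% O2, beside 18.9% of all 16207 tested genes called higher and 15.3% lower. PSC and fibroblast markers were abundant, at 18600 to 23500 summed CPM in normoxic and 18900 to 21400 in hypoxic PSCs, most of it from the collagen genes Col1a1 and Col1a2. Of the 10 in this list Pdgfra and Pdpn were called higher, Lum and Thy1 lower, and 6 were not called, which is close to those shares. Other cells or states also left traces. The 7 adipocyte markers summed to 636 to 1640 CPM at 21% O2 and 73.4 to 91.6 at 1% O2, with the highest value in normoxic replicate 2, and the 9 immune markers summed to 774 to 1360 and 400 to 698 CPM, again highest in normoxic replicate 2. Among the 7 epithelial markers Epcam had 1 count in normoxic replicate 1 and 0 in every other library, while Krt19 rose from 0.715 to 22.1 CPM. In bulk RNA, fewer cells of a type and less RNA per cell cannot be told apart.

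RefSeq promoter sequences on build GRCm38.p6 were matched for 9 of the 10 genes, all but Gipr. In the 250 bases before each annotated start, both strands were searched for ACGTG and GCGTG, the cores of the hypoxia response element bound by HIF. A core was present for 3 of the 9 genes, Glp1r, Vipr1 and Pth1r (the latter at the third of its annotated starts), or in 3 of their 11 windows, beside 38.6% of all 32851 promoter windows. Shown here, with any core in capitals, are the windows of the 2 receptors besides Gipr with the largest increases, Vipr1 and Calcrl, and that of Adm, the adrenomedullin gene. The Vipr1 window is chr9:121642466-121642715 on the plus strand, that of Adm chr7:110627407-110627656 on the plus strand, and that of Calcrl chr2:84425412-84425516 on the minus strand, shortened to the 105 bases outside the GENCODE gene.
Vipr1: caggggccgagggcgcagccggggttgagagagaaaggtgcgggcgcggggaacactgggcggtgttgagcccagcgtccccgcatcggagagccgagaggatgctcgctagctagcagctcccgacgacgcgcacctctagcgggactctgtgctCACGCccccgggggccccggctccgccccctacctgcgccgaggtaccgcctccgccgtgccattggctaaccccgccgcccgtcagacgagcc
Calcrl: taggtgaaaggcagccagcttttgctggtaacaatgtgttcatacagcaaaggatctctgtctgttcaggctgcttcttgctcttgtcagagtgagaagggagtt
Adm: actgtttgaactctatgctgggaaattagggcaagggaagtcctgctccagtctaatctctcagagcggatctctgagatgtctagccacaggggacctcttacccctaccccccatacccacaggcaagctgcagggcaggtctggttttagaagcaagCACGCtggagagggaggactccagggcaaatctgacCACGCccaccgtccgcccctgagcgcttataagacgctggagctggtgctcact
The Vipr1 window held 1 core, 94 bases before the start, and the Adm window 2, at 90 and 54 bases before the start. The window of the related peptide gene Adm2 held 0 cores and that of Ramp3 held 2. No core was found in the window of Calcrl, including the 145 bases left out. The palindromic cAMP response element TGACGTCA was in none of the windows of the 9 genes and in 1.55% of all windows. Its core TGACG, which can share bases with ACGTG, was found for Vipr1 and Pth1r and in 17.8% of all windows. A match of this length is a description of the letters, and no binding was measured.

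Gipr (ENSMUSG00000030406, chromosome 7 of GRCm38, 19156061 to 19166127, minus strand) had 8, 8 and 15 expected counts in normoxic replicates 1, 2 and 3. In hypoxic replicates 1, 2 and 3 it had 5262, 6863 and 7835. In CPM, counts scaled to library size with TMM factors, the level went from 0.407 ± 0.175 to 224 ± 20.3 (SD, n = 3 each). Every hypoxic library was thus far above every normoxic one, and the spread among hypoxic libraries was small beside that gap. The fitted difference was 9.10 ± 0.16 on the log2 scale (SE), or 550-fold, and ranked 5 among the 16207 genes tested. It ran from 8.93 to 9.49 with each library left out, the highest value being that without normoxic replicate 3, the normoxic library with the most Gipr counts.

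The adipocyte markers fell while Gipr rose. All 6 of the 7 that could be tested were called lower, beside 15.3% of all tested genes, with Plin1 at 227 CPM in normoxic and 8.70 CPM in hypoxic PSCs, and Lep had 0 counts in all 6 libraries. Islet cells express Gipr as well. Their hormone genes Ins1, Ins2 and Iapp had 11, 10 and 10 counts in normoxic replicate 2 and 0 in the 3 hypoxic libraries, and Gcg, Sst and Ppy had 0 in all libraries. Of the 7 epithelial markers 3 were tested, and Krt19 was the only one called, higher in the same libraries as Gipr, while Epcam, Cdh1, Krt8 and Krt18 had at most 2 counts in a hypoxic library and Krt7 and Muc1 were not called. The part of these markers in the Gipr result was not tested.

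No annotated gene overlaps Gipr in GENCODE M21, and the 3 nearest protein-coding genes on each side did not share its change. Snrpd2, a spliceosome component gene 2518 bases away on one side, was at 63.4 ± 2.19 CPM in normoxic and 43.4 ± 1.88 CPM in hypoxic PSCs. Eml2, a microtubule-binding protein gene 10293 bases away on the other side, went from 32.5 ± 0.545 to 43.9 ± 0.161 CPM (SD, n = 3 each). Their log2 fold changes were -0.55 (adjusted p = 3.88e-05) and 0.43 (adjusted p = 9.12e-05) in edgeR's quasi-likelihood test over all genes. Neither passed the linear fold change of 1.5 that was needed for a call along with an adjusted p under 0.05. Qpctl, Fbxo46, Gpr4 and Opa3 were not called either, with log2 fold changes from -0.57 for Gpr4 to 0.34 for Fbxo46. Gpr4, a proton-sensing receptor, was also low at 21% O2, at 0.574 ± 0.175 CPM, and stayed low at 1% O2, at 0.387 ± 0.0433 CPM (SD, n = 3 each).

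**Figure D1:**
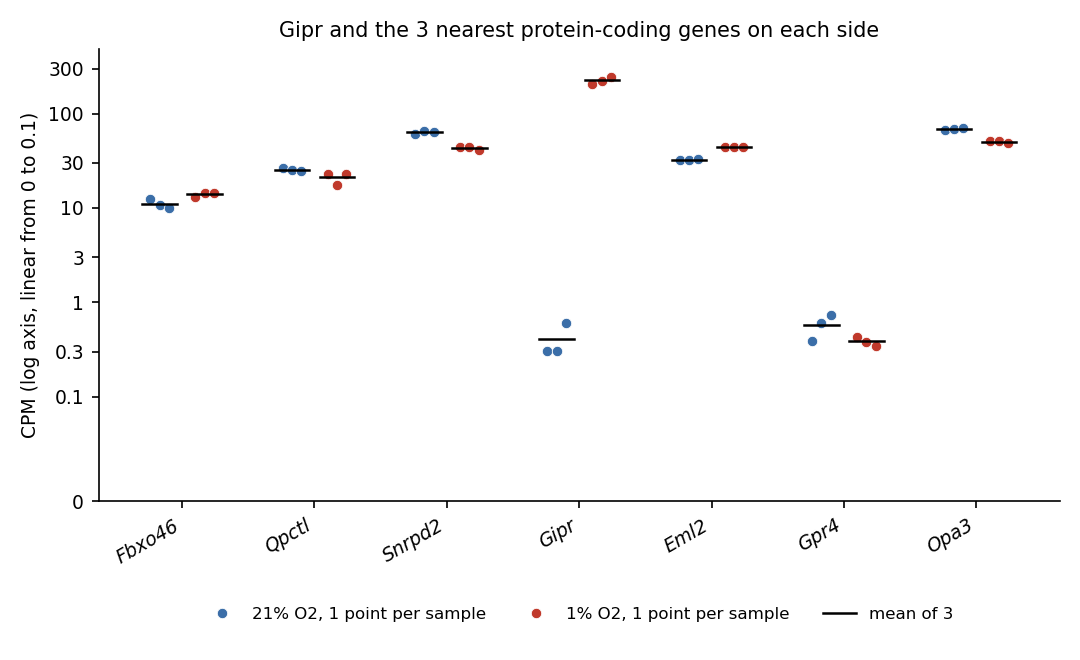
CPM of Gipr and the 3 nearest protein-coding genes on each side, in chromosomal order, with 1 point per sample (blue 21% O2, red 1% O2) and a bar at the mean of 3; the axis is logarithmic above 0.1 and linear below. Gipr moves from 0.407 to 224 CPM on average, while the 6 neighbors keep to within log2 fold changes of -0.57 to 0.43.

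By the distance between centered log2 CPM profiles over the 6 samples, the genes most like Gipr were Nos2 (0.76), Glt1d1 (0.86), Pgf (1.68), H2-Q2 (1.97) and Sncb (2.68). Nos2 encodes inducible nitric oxide synthase and Pgf placental growth factor. With 2 groups that lie far apart, this distance mostly ranks genes by the size of their difference.

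Levels of different genes were compared per length, as TPM (counts divided by merged exon length and scaled to the same sum in each library). In normoxic PSCs the order began with Pth1r at 53.6 ± 0.414 TPM, Adcyap1r1 at 43.4 ± 6.00 and Calcrl at 27.0 ± 2.80, followed by Ramp1 at 3.43 ± 0.149 TPM (SD, n = 3 each). The ranges of these 4 genes did not overlap. Vipr1, Gipr, Glp2r, Vipr2 and Gcgr came next, between 0.617 TPM for Vipr1 and 0.211 TPM for Gcgr, and each overlapped its neighbor in the order. Glp1r was last at 0.0601 TPM. Gipr was 6 of 10, at 0.389 ± 0.163 TPM (SD, n = 3).

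In hypoxic PSCs Gipr led at 226 ± 22.2 TPM, before Calcrl at 66.5 ± 1.45, Pth1r at 56.5 ± 0.941 and Adcyap1r1 at 33.2 ± 5.22 TPM (SD, n = 3 each). Below them were Vipr1 at 3.86, Ramp1 at 2.30, Glp2r at 0.627 and Vipr2 at 0.420 TPM. These 8 genes did not overlap with their neighbors in the order, and only Gcgr and Glp1r, the last 2, did. Gipr made up 0.30% ± 0.124 of the summed TPM of the 10 genes at 21% O2 and 57.9% ± 2.18 at 1% O2 (SD, n = 3 each). Without Gipr the sum of the others was 129 ± 3.0 and 164 ± 7.22 TPM. Ranked by TPM among all genes, Gipr lay between 16017 and 17746 in normoxic libraries and between 660 and 786 in hypoxic ones.

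**Figure D2:**
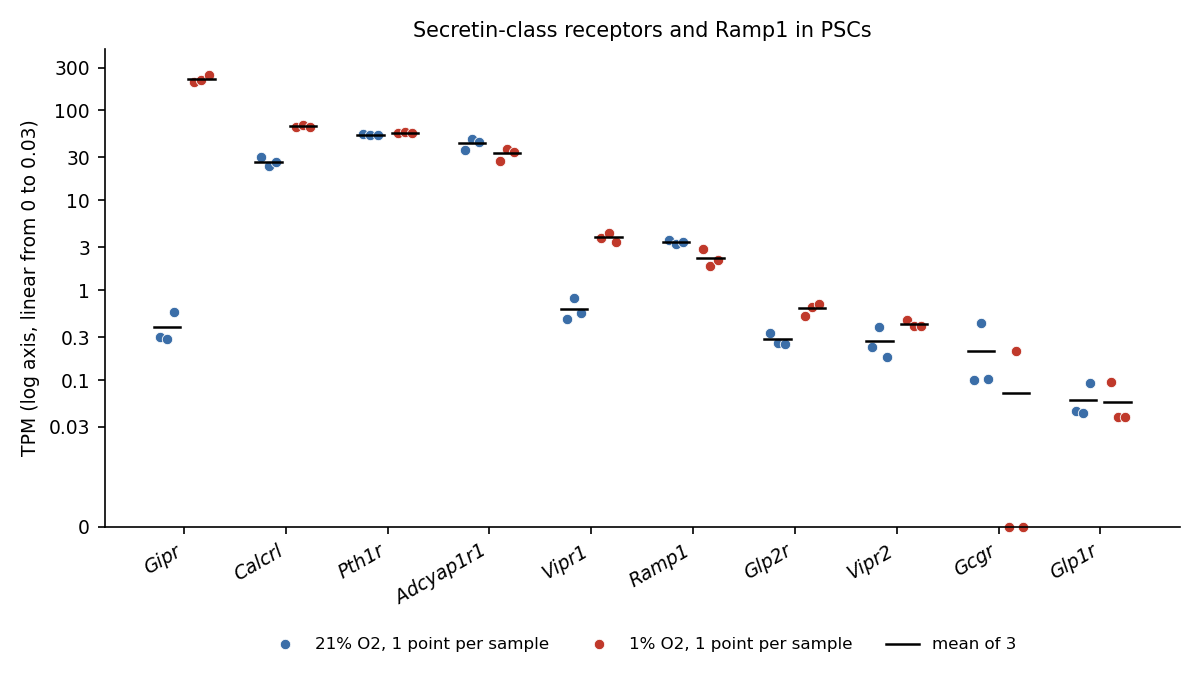
TPM of the 10 genes in each sample (blue 21% O2, red 1% O2; bars are means of 3), ordered by the mean at 1% O2; the axis is logarithmic above 0.03 and linear below, so that counts of 0 can be drawn. Gipr goes from the low group to the top, at 226 TPM on average, and Gcgr and Glp1r stay below 0.5 TPM in every sample.

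The low-count filter of edgeR kept 8 of the 10 genes, Gipr and Vipr2 only through the hypoxic samples. Among these 8, Gipr, Vipr1, Calcrl and Glp2r met the thresholds of a call as higher, Ramp1 met them as lower, and 3 did not. Over all 16207 tested genes, 18.9% were called higher and 15.3% lower. Without the fold threshold 6 of the 8 would be called, as would 62.7% of all tested genes. In 4 of the 8 every hypoxic sample was above every normoxic one, and in 2, Adcyap1r1 and Ramp1, every hypoxic sample was below. Over all tested genes these shares were 34.9% and 34.0%, together 68.9%. Since the list was built around Gipr with these values known, nothing is read from these counts.

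Vipr1 (ENSMUSG00000032528, chromosome 9, 121642716 to 121672954, plus strand), whose window is printed above, is a Gs-coupled receptor for VIP and PACAP. It had 21, 38 and 24 counts in normoxic replicates 1 to 3 and 160, 227 and 179 in hypoxic replicates 1 to 3. The groups lay well apart, with normoxic replicate 2 the highest of its group and still far below the lowest hypoxic library. The mean was 1.07 ± 0.329 CPM at 21% O2 and 6.38 ± 0.814 CPM at 1% O2 (SD, n = 3 each), which differ by 2.56 ± 0.22 on the log2 scale (SE). Vipr2, its paralog with the same ligands, had 8, 14 and 6 counts at 21% O2 and 15, 16 and 16 at 1% O2. In CPM the groups overlapped, and the log2 difference of 0.55 ± 0.36 (SE) was not called.

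Adcyap1r1, the PACAP receptor (ENSMUSG00000029778, chromosome 6, 55451978 to 55501451, plus strand), was one of the abundant receptors of the class. It was at 71.5, 96.4 and 90.0 CPM in normoxic replicates 1 to 3 and at 51.8, 70.7 and 64.7 CPM in hypoxic replicates 1 to 3. Each hypoxic library was below each normoxic one, the closest pair being normoxic replicate 1 and hypoxic replicate 2. Its log2 fold change of -0.46 (standard error 0.13) stayed inside the fold threshold. Transcripts of the PACAP gene Adcyap1 and the VIP gene Vip had 0 counts in all 6 libraries, so the cells carried receptor RNA without detectable RNA of these ligands.

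Pth1r (ENSMUSG00000032492, chromosome 9, 110722085 to 110747145, minus strand), the shared receptor of parathyroid hormone and its related protein, was the steadiest of the 10. It was at 46.7, 47.2 and 47.3 CPM in normoxic replicates 1 to 3 and at 46.5, 47.9 and 46.9 CPM in hypoxic replicates 1 to 3. The groups overlapped, and the log2 difference was 0.00 ± 0.05 (SE). Its exons share 95 bases with Myl3 on the opposite strand, of which no library held more than 4 counts. Of its ligands, Pth had 0 counts in every library, and Pthlh had 0, 2 and 0 counts in normoxic and 10, 2 and 5 in hypoxic PSCs.

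The closest relatives of Gipr in ligand family were scarce. Glp2r (ENSMUSG00000049928, chromosome 11, 67661502 to 67771153, minus strand), the receptor for a growth-promoting peptide of the gut, had 15, 12 and 11 counts at 21% O2 and 22, 34 and 37 at 1% O2. The lowest hypoxic library was above the highest normoxic one, although all values were small. The log2 difference was 1.07 ± 0.27 (SE). Glp2r shares 66 exonic bases with Gas7 on the opposite strand, a gene at 168 CPM in normoxic and 167 CPM in hypoxic PSCs. The strand setting of the counting is not given in the sources used here, and the part of Gas7 reads in the Glp2r counts was not tested.

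Glp1r, the incretin receptor targeted by diabetes drugs, had 2, 2 and 4 counts in normoxic replicates and 4, 2 and 2 in hypoxic replicates. Gcgr, the glucagon receptor, had 2, 9 and 2 counts in normoxic and 0, 5 and 0 in hypoxic replicates, so replicate 2 was highest in both conditions. Neither passed the filter, and a difference in either was not detectable at this depth. The ligand genes of these receptors were at or near 0. Gcg, the source of glucagon and the glucagon-like peptides, had no count, and Gip had 1 count, in hypoxic replicate 3.

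**Figure D3:**
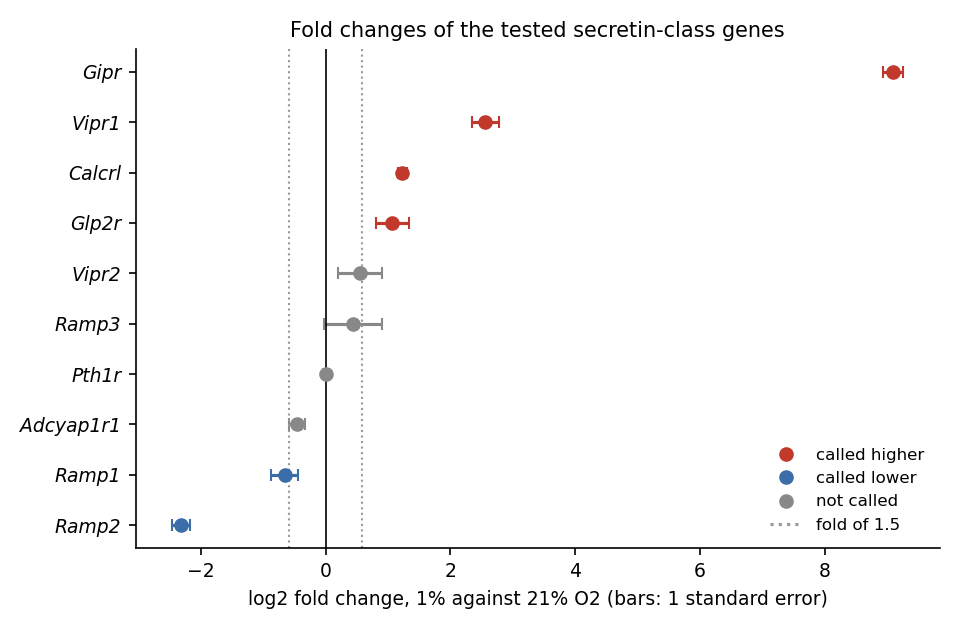
Log2 fold changes between 1% and 21% O2 with 1 standard error for the 8 of the 10 genes that could be tested and for Ramp2 and Ramp3; dotted lines mark a linear fold of 1.5. Gipr at 9.10 lies apart from Vipr1 at 2.56, Calcrl at 1.23 and Glp2r at 1.07, and Pth1r lies at 0.00.

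Calcrl (ENSMUSG00000059588, chromosome 2, 84330626 to 84425411, minus strand) had 1121, 947 and 971 counts in normoxic replicates 1 to 3 and 2333, 2978 and 2891 in hypoxic replicates 1 to 3. All hypoxic libraries were above all normoxic ones, and the hypoxic ones lay close together at 91.6, 95.0 and 90.9 CPM. The log2 difference was 1.23 ± 0.07 (SE). Endothelial cells are rich in this receptor, and of the 8 endothelial markers 7 were tested, with 2 called higher (Tek and Vwf), 2 lower (Kdr and Cldn5) and 3 not called, beside 18.9% and 15.3% of all genes called higher and lower, with sums of 15.7 to 21.8 CPM in normoxic and 21.8 to 30.9 CPM in hypoxic PSCs. Their part in the Calcrl result was not tested.

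Of the 3 RAMP genes, Ramp1 and Ramp2 were lower in hypoxic PSCs and Ramp3 was not called. Ramp1 (ENSMUSG00000034353, chromosome 1, 91179822 to 91225196, plus strand), which turns Calcrl into a CGRP receptor, had 83, 79 and 77 counts in normoxic and 64, 50 and 58 in hypoxic replicates. Each hypoxic library was lower, and the log2 difference was -0.66 ± 0.21 (SE). The call was lost without normoxic replicate 3, hypoxic replicate 2 or hypoxic replicate 3, where the log2 fold changes were -0.66, -0.53 and -0.61. Ramp2, which makes Calcrl an adrenomedullin receptor, had 523, 659 and 531 counts in normoxic replicates 1 to 3 and 115, 165 and 115 in hypoxic replicates 1 to 3. The groups were far apart, at 22.2 CPM against 4.47 CPM. The log2 difference was -2.32 ± 0.14 (SE), with an adjusted p of 1.76e-06 in edgeR's quasi-likelihood test. Ramp2 shares 1103 exonic bases with Vps25 on the same strand, and Vps25, an endosomal sorting gene, was at 45.2 CPM in normoxic and 37.7 CPM in hypoxic PSCs, so reads in the shared stretch are divided between these genes by estimate. Ramp3 had 18, 16 and 7 counts at 21% O2 and 29, 12 and 22 at 1% O2, with overlapping groups and a log2 fold change of 0.44.

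Per length, the RAMPs together were at 27.1 ± 2.33 TPM in normoxic and 8.92 ± 1.45 TPM in hypoxic PSCs (SD, n = 3 each), of which Ramp2 made up 82.6% ± 2.56 and 53.8% ± 11.2. Calcrl TPM divided by the summed RAMP TPM was between 0.817 and 1.15 in normoxic libraries and between 6.20 and 8.46 in hypoxic libraries. By TPM, RNA of the receptor and of its partners was thus about equal at 21% O2 and unequal at 1% O2, within the uncertainty of the Ramp2 counts. The ratio at each oxygen level also depends on the merged exon length taken for Ramp2, 3301 bases, of which 1103 are shared with Vps25.

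Of 18 peptide ligand genes of the class, 7 had no count in any library and 3 could be tested. Adm, a vasodilator peptide gene, was at 62.0, 64.0 and 80.3 CPM in normoxic replicates 1 to 3. In hypoxic replicates 1 to 3 it was at 286, 334 and 291 CPM. Adm2, also called intermedin, was at 3.97, 3.34 and 4.22 CPM in normoxic and at 32.1, 32.9 and 31.5 CPM in hypoxic replicates. Neither gene had overlapping groups. The log2 fold changes were 2.14 for Adm (standard error 0.11, adjusted p = 4.82e-07) and 3.07 for Adm2 (standard error 0.10, adjusted p = 5.08e-08) in edgeR's quasi-likelihood test. Calca, the source of calcitonin and CGRP, was not called, at 0.916 CPM and 0.575 CPM on average, and was highest in normoxic replicate 2. The growth hormone-releasing hormone gene Ghrh, named after its values were seen, had 0 counts in the normoxic libraries and 9, 7 and 7 in the hypoxic ones, too few to pass the filter.

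**Figure D4:**
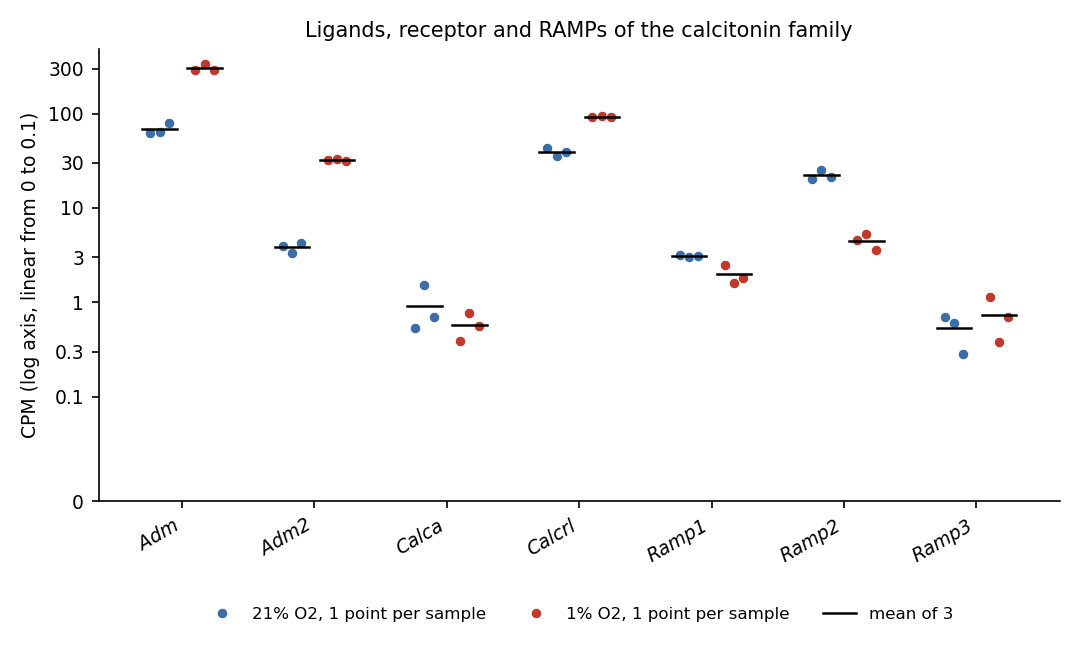
CPM of 3 ligand genes, Calcrl and the RAMP genes in each sample (blue 21% O2, red 1% O2; bars are means of 3); the axis is logarithmic above 0.1 and linear below. Adm, Adm2 and Calcrl are higher in each hypoxic sample, Ramp1 and Ramp2 lower, and the samples of Calca and Ramp3 overlap; levels of different genes should not be compared on this scale.

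Apart from Ramp2 and Ramp3, the other receptors of the class were close to absent. Sctr, the secretin receptor, had 2, 10 and 4 counts in normoxic and 0, 1 and 1 in hypoxic PSCs. Crhr1, Crhr2, Calcr and Pth2r had at most 4 counts in a library, and Ghrhr had none. Of the 8 genes in this list, 2 were tested, with 1 called lower and 0 higher, beside 15.3% and 18.9% of all tested genes.

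Over all 10 lists of related receptors, ligands and cAMP signaling genes, 112 of 166 genes were tested, and 20.5% were called higher and 20.5% lower. These shares lie near the 18.9% and 15.3% of all tested genes, and single lists differ from them in either direction without a test of the list. In the list of G proteins and adenylate cyclases, 13 of 15 genes were tested, of which 1 was called higher and 3 lower, with a median log2 fold change of -0.13. Over all tested genes this median was 0.00. Adcy5, a cyclase inhibited by calcium, was at 60.8, 69.1 and 69.8 CPM in normoxic and at 13.0, 11.4 and 10.4 CPM in hypoxic replicates, a log2 fold change of -2.53 (adjusted p = 8.97e-08 in edgeR's quasi-likelihood test). The inhibitory G protein gene Gnai1 and the cyclase gene Adcy1 fell by 1.10 and 1.00 on the log2 scale. Adcy4 rose from 9.23 to 20.9 CPM. Gnas, which encodes the Gs alpha subunit, was not called.

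Among 16 phosphodiesterases, the enzymes that break down cAMP or cGMP, 5 were called higher and 3 lower, with a median log2 fold change of 0.05. Pde8b, Pde4a and Pde1b rose by log2 fold changes of 1.74, 0.85 and 0.81. Pde7b, Pde3b and Pde4d fell by 1.71, 0.82 and 0.75 on the log2 scale. Of 17 genes of protein kinase A, the cAMP sensor EPAC and CREB, 16 were tested, of which 5 were called lower and the other 11 were not called, beside 18.9% of all tested genes called higher and 15.3% lower. Among them were the catalytic subunit Prkaca (116 CPM to 66.8 CPM), the regulatory subunit Prkar2b (176 CPM to 89.9 CPM) and the kinase inhibitor Pkia (6.61 CPM to 2.50 CPM). The called genes of this list thus included both a kinase subunit and an inhibitor gene. Of the other inhibitor genes in the list, Pkib fell from 0.778 to 0.269 CPM and was called. Pkig, the most abundant, rose from 28.6 to 39.6 CPM and was not called, at a log2 fold change of 0.47. Median log2 fold change of the list was -0.13.

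Of 13 genes known to be induced by cAMP, 12 were tested, with 4 called higher and 3 lower. The shares of all tested genes called higher and lower were 18.9% and 15.3%. The list had a median log2 fold change of 0.34, beside 0.00 over all tested genes, and no test of the list was made. Sik1 rose from 32.8 to 133 CPM, Areg from 0.587 to 2.07 and Atf3 from 3.45 to 7.73 CPM. Ppargc1a fell from 5.81 to 2.61 CPM, Nr4a1 from 73.7 to 38.2 and Gem from 86.0 to 54.7 CPM. Each of these responds to other signals as well.

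In the list of ligand processing and breakdown, 11 of 12 genes were tested, and 1 was called higher and 1 lower. Of all tested genes, 18.9% were called higher and 15.3% lower. The median log2 fold change of the list was -0.03. Mme, or neprilysin, which cleaves several of these peptides, was at 92.2, 116 and 104 CPM in normoxic and at 15.1, 18.1 and 19.8 CPM in hypoxic replicates (log2 fold change -2.55, adjusted p = 2.64e-07 in edgeR's quasi-likelihood test). Dpp4, which inactivates GIP, was not called. Of 9 genes for receptor desensitization all were tested, and Grk3, a receptor kinase, was the only one called. Grk3 rose from 0.892 to 1.78 CPM (log2 fold change 0.99, adjusted p = 0.0417 in edgeR's quasi-likelihood test). Without the fold threshold 4 of the 9 would be called, beside 62.7% of all tested genes, with Arrb1 also higher and Grk4 and Grk6 lower. The arrestin gene Arrb1 went from 63.9 to 95.6 CPM, a log2 fold change of 0.58 that stayed just inside the threshold (adjusted p = 6.16e-05 in the same test).

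**Figure D5:**
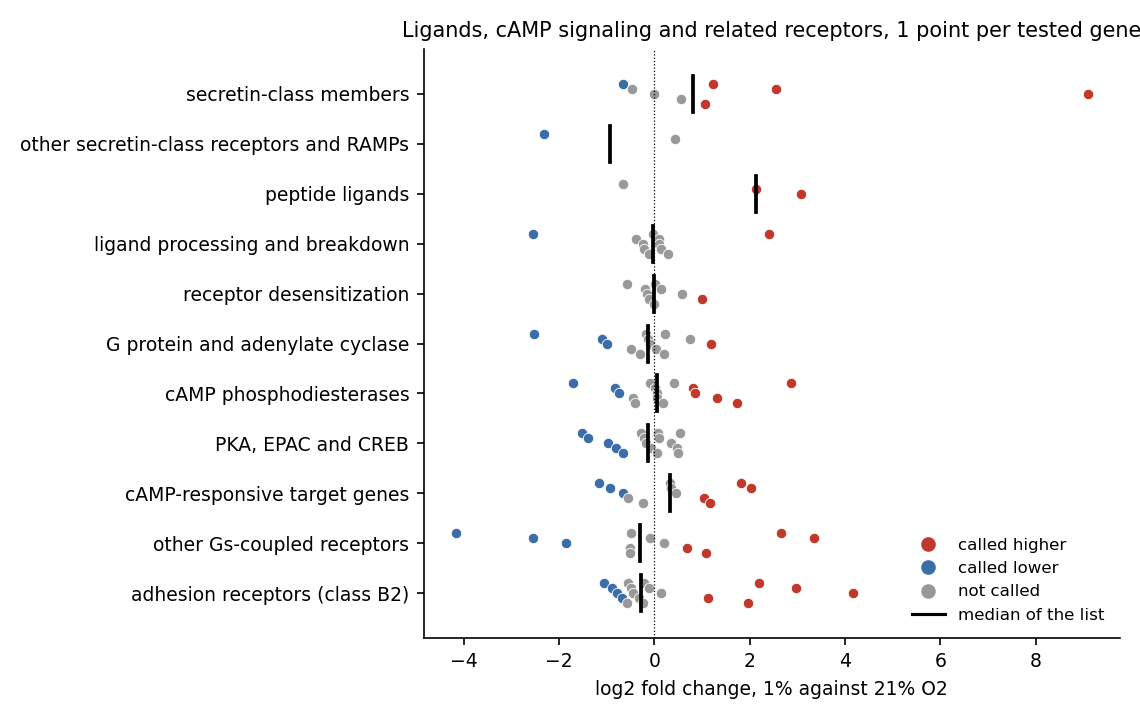
Log2 fold changes between 1% and 21% O2 for the tested genes of the 10 genes around Gipr and of the 10 lists of related receptors, ligands and cAMP signaling genes (no marker lists), 1 point per gene (red called higher, blue called lower, gray not called), with a bar at the median. Gipr at 9.10 is the rightmost point; the medians drawn lie from -0.94 to 2.14, the outermost in lists with 2 and 3 tested genes.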

How the data were processed

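Per the paper's methods, the authors made poly(A) libraries, trimmed reads with Cutadapt, mapped them to GRCm38 with STAR (version 2.6.1b) and estimated reads per gene with RSEM (version 1.3.1, both versions from the submitters' processing notes). The annotation release and strand setting are not given in the sources used here. The authors deposited expected counts without scaling between samples, and 0 of the values had a fraction, so rounding changed nothing.

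Oxygen levels were taken from the labels, replicate numbers from the sample titles, and columns were matched by the sample names in the labels. GENCODE M21 named 55240 of 55426 features, and 186 had no name. With edgeR (4.0.16, limma 3.58.1, R 4.3.3), 16207 genes passed filterByExpr. TMM scaling, the quasi-likelihood F test and Benjamini-Hochberg adjustment followed. A call needed a linear fold change beyond 1.5 and an adjusted p under 0.05. Standard errors are the log2 fold change divided by the square root of F. TPM used merged exon lengths. A group of 3 against 3 cannot give an exact two-sided permutation p below 0.1, so p-values come from the fit across all genes. They measure the spread between these samples only. Fits were tested on simulated data.

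Deviations from the group means correlated at 0.142, 0.139 and 0.0378 within the pairs of equal replicate number, and the sources do not pair the samples. Replicates differed by a chi-square of at least 5.68 per degree of freedom, above sampling noise. Library totals, from 24749601 to 31925054 counts, limit detection to about 3 counts, which covers counting error only.

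The genes and lists were chosen with earlier results of these data known. Named genes are the 10 members, the other class receptors, tested ligands, up to 3 called genes per direction and list at a mean of at least 1 CPM, 3 neighbors of Gipr per side and the 5 nearest profiles. Genes named for overlap, absence or as markers fall outside this rule, as do Gnas, Dpp4, Vip, Adcyap1, Pth, Pthlh, Gip and Gcg, named for their roles. Ghrh, Pkib, Pkig, Arrb1, Grk4 and Grk6 also fall outside it and were named after their values were seen. Alternatives were the replicate block, other scalings, filters, fold thresholds, DESeq2 (1.42.0), limma-voom and each sample left out. Figures were drawn with matplotlib (3.10.9).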

Additional observations from a re-analysis of the deposited data

How the results depend on the processing

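The number of the 10 genes called higher was 4, and between 3 and 4 in the 15 alternatives (a filter at 1 CPM in 3 samples removed Glp2r and Vipr2). The number called lower was 1 in the main setting, 2 without a fold threshold (Adcyap1r1 joined Ramp1), 0 at a fold of 2, and from 0 to 1 with 1 sample left out. The log2 fold change of Gipr ran from 9.08 to 9.12 over other tools, scalings and filters and from 8.93 to 9.49 with 1 sample left out. Of 112 tested genes in the pathway lists, 23 were called higher and 23 lower. Without a fold threshold these were 33 and 40, at a fold of 2 they were 19 and 13, and under the filter at 1 CPM they were 18 and 22. Over all genes, 3068 were called higher and 2479 lower. Without a fold threshold these were 5150 and 5018, and at a fold of 2 they were 1929 and 1227. Adding the replicate block to the edgeR fit gave 5572 called genes against 5547 without it, 5467 of them shared. Since the samples share only a number, no pairing was assumed, and the block changed no call among the 10 genes. Without division by length, 12 of the 20 ranks by level equaled those by TPM, and Gipr was first at 1% O2 and 7 at 21% O2. The low counts of Glp1r, Gcgr, Vipr2 and Glp2r limit what can be seen in them.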

Other observations

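Receptors outside the class that also signal through Gs formed a list of 28, of which 12 were tested. Of these, 4 were called higher, 3 lower and 5 were not called, beside 18.9% and 15.3% of all tested genes called higher and lower, with a median log2 fold change of -0.29. The serotonin receptor Htr6 rose from 0.416 to 4.30 CPM, and the adenosine receptors Adora2a and Adora2b rose from 4.30 to 9.12 CPM and from 28.8 to 46.3 CPM. Adrb3, the adrenergic receptor of fat cells, fell from 33.0 to 1.8 CPM and was highest in normoxic replicate 2, as the adipocyte markers were. The dopamine receptor Drd1 fell by 1.85 on the log2 scale.

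Adhesion receptors, the class B2 relatives, were also listed. Of 30 genes 18 were tested, with 5 called higher and 4 lower, beside 18.9% and 15.3% of all tested genes called higher and lower. Their median log2 fold change was -0.28. Celsr3, an atypical cadherin receptor, rose from 2.09 to 16.6 CPM, Adgrg2 from 0.881 to 3.46 CPM and Adgrd1 from 56.4 to 122 CPM. Adgre1, the macrophage marker also known as F4/80, fell by 1.05 on the log2 scale with overlapping groups, and Adgrg1 and Adgra3 fell by 0.88 and 0.78 on that scale.

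The remaining marker lists were read as follows. Of 5 mural markers 3 were called higher and 1 lower, and of 5 tested neural markers 1 higher and 2 lower. Among all tested genes, 18.9% were called higher and 15.3% lower. The mural markers summed to 72.4 to 90.5 CPM in normoxic and 119 to 130 CPM in hypoxic PSCs. For the neural list the sums were 37.8 to 41.4 and 35.5 to 38.1 CPM. None of the 7 acinar markers passed the filter.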
